A study of Mus musculus with 23 samples.

Results

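The 10 genes described here encode membrane proteins that carry bile acids, phospholipids and organic anions through the hepatocyte. They are 10 of the 19147 genes with a probe set of a single symbol on the arrays. The probe sets were those whose platform annotation gave exactly 1 symbol, and the brightest probe set by mean log2 intensity stood for each gene; all 10 were found, on 11 probe sets of 38385, since Slco1a4 has a second one. All 10 lay above the median brightness of the array. Whole livers of 23 mice were profiled: 12 females, of which 6 were knockout (KO) and 6 wild-type (WT), and 11 males, of which 6 were KO and 5 WT. The KO animals lacked P2ry13, called GPR86 in the labels, a receptor for ADP, and no treatment or other allele is named for any animal. The labels state no strain, age, litter or form of the deleted allele.

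Bile forms when hepatocytes take up bile acids and other anions from sinusoidal blood and pump them across the canalicular membrane. Uptake runs through the sodium-dependent carrier NTCP (Slc10a1) and the sodium-independent organic anion transporters of the Slco family. Canalicular export runs through ATP-driven pumps, while pumps on the blood side return anions when export is limited. In rodent liver several of these genes are known to differ between the sexes, through the sex-specific pattern of growth hormone secretion.

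Each array's median intensity was 19.5 to 21.1 on the linear scale. P2ry13 lay between 6.03 and 6.42 (log2) in female WT and between 5.06 and 5.22 in female KO, and between 5.80 and 6.34 in male WT and 5.07 and 5.34 in male KO, so every KO array was below every WT array. Xist lay at 8.42 or above in all female arrays and at 5.22 or below in all male arrays, while 4 probe sets for Y-linked genes read 2.53 to 3.69 in females, the level they give without transcript. The 5 measured hepatocyte markers had a mean log2 intensity between 12.7 and 13.2 in every array, and 6 markers of the bile duct epithelium had a mean between 4.06 and 4.83.

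The differences that passed a test lay between the sexes. Averaged over both genotypes, Slc10a1, Slco1a4, Abcc4 and Abcb11 were higher in females and Slco1a1 and Atp8b1 were higher in males, 6 of 10 (limma with Benjamini-Hochberg adjustment over all probe sets, adjusted p under 0.05). Over all 38385 probe sets 10.5% passed in that comparison, 5.96% higher and 4.55% lower in females. Of the 19192 probe sets above the median level, where all 10 transporters lie, 20.1% passed when these alone were tested. Livers hold several cell types, so less RNA per cell cannot be told apart from fewer cells of a type. Abcb4, Abcc2, Abcc3 and Slco1b2 did not pass. In the F test over the 4 groups 5 of 10 passed, Slco1a1, Slco1a4, Slc10a1, Abcc4 and Atp8b1, where 6.49% of all probe sets did. None of the 10 passed between KO and WT in females, in males or averaged.

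**Figure D1:**
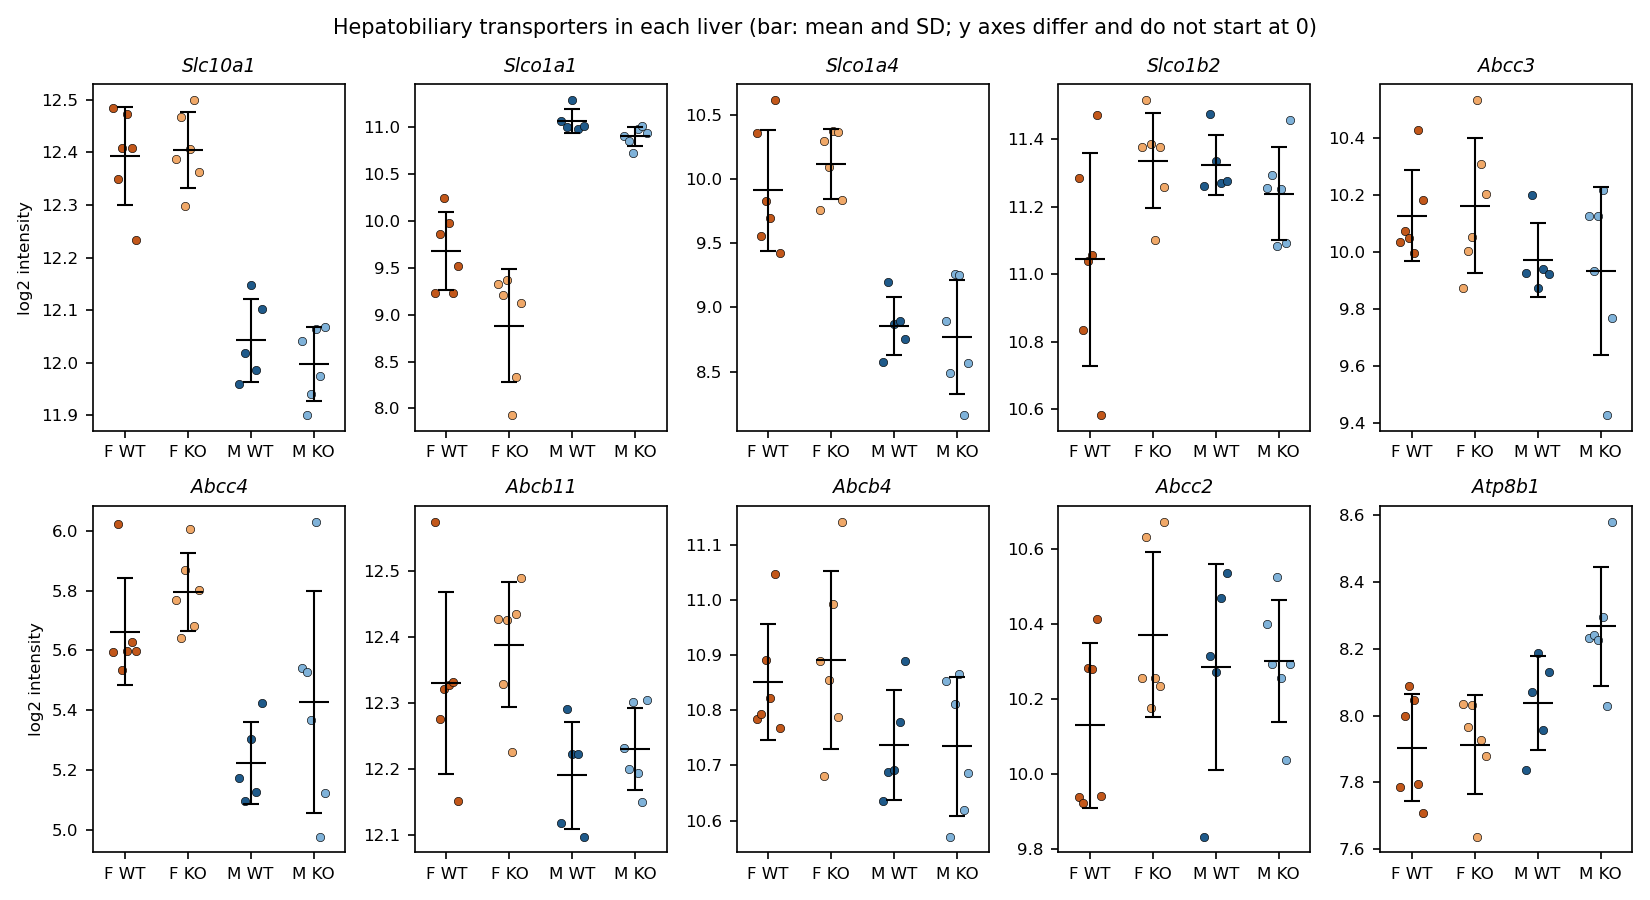
Log2 intensity (y axis, its range differing by panel) of the 10 transporters in each liver, by group on the x axis (F female, M male); each point is 1 animal and the bars are the mean and the SD. Slc10a1, Slco1a1 and Slco1a4 separate the 12 female from the 11 male livers without overlap, and the points of the other 7 genes overlap between the sexes.

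Of the uptake carriers, Slco1a1, which takes up organic anions and steroid conjugates from blood, differed most between the sexes. Its log2 intensity was lowest at 9.23, with a median of 9.69 and a highest value of 10.25, in the 6 female WT livers, and 7.93, 9.17 and 9.36 in the 6 female KO livers. The 5 male WT livers read 11.07, 10.99, 11.28, 10.98 and 11.01, and the 6 male KO livers ran from 10.72 to 11.01 with a median of 10.92. All 12 females were below all 11 males, and the female values were spread over a wider range than the male ones. The difference was -1.39 on the log2 scale in WT (SE 0.20, 2.62-fold lower in females; limma, adjusted p = 4.56e-05) and -2.02 in KO (SE 0.19, 4.05-fold lower; limma, adjusted p = 2.64e-08). The order of the group means, from high to low, was male WT, male KO, female WT, female KO; neither neighbour within a sex passed the test against the other.

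Slco1a4, another organic anion carrier of the same family, lay the other way. Female WT livers ranged from 9.42 to 10.61 with a median of 9.76, and female KO livers from 9.76 to 10.37 with a median of 10.19. The male WT livers read 8.58, 9.19, 8.87, 8.89 and 8.75, and the male KO livers ran from 8.16 to 9.26 with a median of 8.73. Every female liver was above every male liver, although the lowest female WT value of 9.42 lay only slightly above the highest male value of 9.26. The gene was 1.05 higher in females in WT (SE 0.20, 2.08-fold; limma, adjusted p = 0.00114) and 1.35 higher in KO (SE 0.19, 2.54-fold; limma, adjusted p = 1.80e-05). The second probe set of Slco1a4 gave 1.39 in WT (SE 0.23) and 1.54 in KO (SE 0.22), with all 6 females above all males within each genotype (limma, adjusted p = 0.000256 and 2.27e-05). Over all livers it did not separate the sexes: 11 of 12 females lay above every male, the lowest female WT at 7.23 and the highest male KO at 7.40. The Slco1a carriers are close relatives, and whether their probe sets share signal was not tested.

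Slc10a1, the main carrier of conjugated bile acids into the hepatocyte, showed a small difference with a small spread. The female WT values ran from 12.23 to 12.49 and the female KO values from 12.30 to 12.50, with medians of 12.41 and 12.40. The male WT livers read 11.96, 12.02, 12.15, 11.99 and 12.10, and the male KO livers ran from 11.90 to 12.07 with a median of 12.01. No male liver reached the lowest female liver. The rise in females was 0.35 in WT (SE 0.06, 1.27-fold; limma, adjusted p = 0.000734) and 0.41 in KO (SE 0.06, 1.32-fold; limma, adjusted p = 4.20e-05). With a minimum change of 20% asked by the test, Slc10a1 did not pass in either genotype, while Slco1a1 and Slco1a4 did. Slco1b2, the carrier of bile acids and drugs closest to the human liver carriers of the 1B type, averaged 11.04 ± 0.32 in female WT, 11.34 ± 0.14 in female KO, 11.32 ± 0.09 in male WT and 11.24 ± 0.14 in male KO (log2, SD, n = 6, 6, 5 and 6). Its sex difference was -0.28 in WT (SE 0.11; limma, adjusted p = 0.18) and 0.10 in KO (SE 0.11; limma, adjusted p = 0.733), and neither passed; without female WT replicate 5, the highest of its group at 11.47, the WT difference passed at -0.36 (limma, adjusted p = 0.0438).

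Windows around the starts of 3 uptake carriers are shown because their genes differed between the sexes without overlap, in both directions. They are RefSeq sequences of the mouse assembly GRCm38.p6, from 250 bases before to 50 after the start, in the direction of the gene; such a window was given for 8 of the 10 transporters, in 10 windows. The capitals mark TTCNNNGAA, the palindrome that STAT5, the signal carrier of growth hormone, is known to bind; a palindrome reads alike on both strands.
Slco1a1, chr6:141946913-141947212, minus strand: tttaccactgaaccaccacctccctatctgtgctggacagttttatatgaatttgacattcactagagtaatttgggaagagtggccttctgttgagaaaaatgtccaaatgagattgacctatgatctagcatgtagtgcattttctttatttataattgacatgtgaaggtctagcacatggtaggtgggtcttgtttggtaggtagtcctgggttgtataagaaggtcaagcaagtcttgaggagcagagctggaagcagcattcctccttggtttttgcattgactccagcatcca
Slco1a4, chr6:141856171-141856470, minus strand: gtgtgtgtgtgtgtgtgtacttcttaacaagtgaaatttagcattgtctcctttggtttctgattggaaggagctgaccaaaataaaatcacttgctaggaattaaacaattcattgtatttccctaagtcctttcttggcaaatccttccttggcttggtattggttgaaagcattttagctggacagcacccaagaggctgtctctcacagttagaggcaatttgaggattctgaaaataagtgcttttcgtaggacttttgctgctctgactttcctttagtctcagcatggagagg
Slc10a1, chr12:80968656-80968955, minus strand: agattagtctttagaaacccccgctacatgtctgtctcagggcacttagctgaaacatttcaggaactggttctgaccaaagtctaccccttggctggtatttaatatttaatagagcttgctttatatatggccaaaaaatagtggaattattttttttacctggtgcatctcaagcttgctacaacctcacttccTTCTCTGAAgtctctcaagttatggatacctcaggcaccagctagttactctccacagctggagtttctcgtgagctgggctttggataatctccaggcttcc
The palindrome stood once in the window shown for Slc10a1, the upstream one of its 2 listed windows, as TTCTCTGAA from base -53 to base -45, and these letters were not in the windows of Slco1a1 and Slco1a4. It was found in 3 of the 10 windows, those of Slc10a1, Slco1b2 and Abcc4, against 8.3% of all 32851 windows. The inverted repeat of AGGTCA with 1 base of any kind between the copies, which the bile acid receptor FXR is known to bind, reads alike on both strands. Its exact letters were in 0 of the 10 windows and in 0.00913% of all, 3 of 32851. At so low a share, 0 of 10 cannot tell whether these windows hold a site of this type. Sites that differ from these letters were not searched.

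Among the protein-coding Slco1 genes of chromosome 6, the order by start in the gene table was Slco1c1, Slco1b2, Slco1a4, Slco1a1, Slco1a6 and Slco1a5. Genes of other names that may lie between them were left out. This neighbourhood was looked at after the values of the transporters were known. Slco1a4 and Slco1a1, which are next to each other in this order, differed between the sexes in opposite directions. The differences averaged over the genotypes were 1.20 (SE 0.14) and -1.70 (SE 0.14; limma, adjusted p = 3.18e-07 and 6.54e-10). Of the other Slco1 genes, Slco1c1 and Slco1a6 had group means between 2.71 and 3.15. That is the level that Y-linked probe sets read in females, so no direction can be read from these 2 genes. Slco1a5 had group means from 3.73 to 4.11 and a sex difference of 0.06 (SE 0.12; limma, adjusted p = 0.806).

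**Figure D2:**
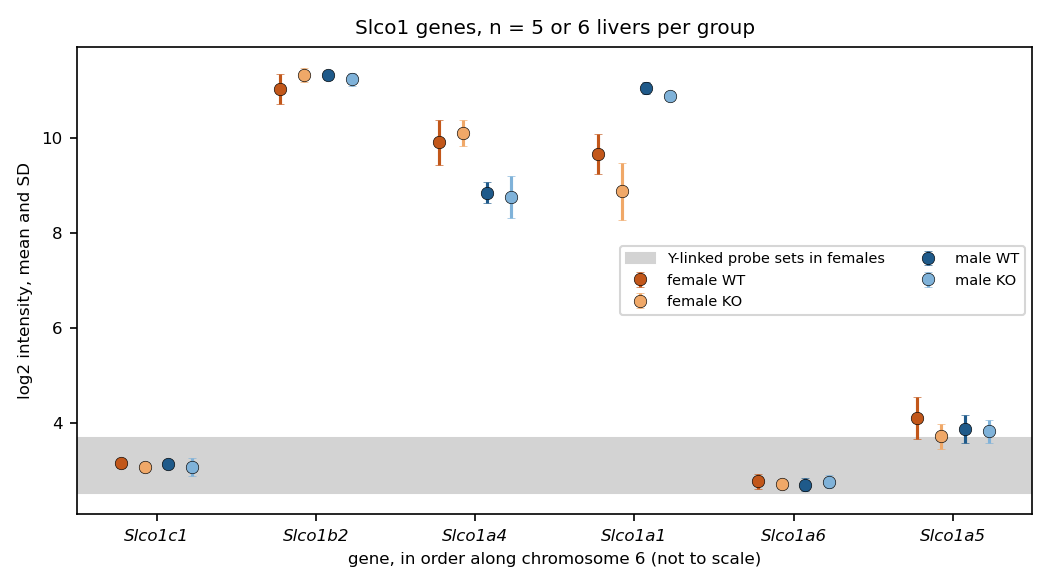
Mean log2 intensity and SD (y axis) of the 6 Slco1 genes in the 4 groups, in their order along chromosome 6 (x axis, not to scale); the grey band is the range of Y-linked probe sets in female livers. Slco1a4 is higher in females and Slco1a1 higher in males, Slco1b2 shows no difference that passed, and Slco1c1 and Slco1a6 lie in the grey band.

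On the blood-facing membrane, the efflux pump Abcc4, which exports bile acids and cyclic nucleotides, was higher in females. Its female WT values ran from 5.53 to 6.02 with a median of 5.60, and its female KO values from 5.64 to 6.01 with a median of 5.78. Male WT livers read 5.17, 5.09, 5.30, 5.12 and 5.42, and male KO livers ran from 4.98 to 6.03 with a median of 5.45. The WT sexes did not overlap, while male KO replicate 4, at 6.03, lay above every female liver. Averaged over genotypes the rise in females was 0.40 (SE 0.09, 1.32-fold; limma, adjusted p = 0.0024). In WT alone it was 0.44 (SE 0.13; limma, adjusted p = 0.0468), a call that held when female KO replicate 4, 1 of the male KO replicates 4 to 6, or male WT replicate 6 was left out, and ended on leaving out any other array (limma, adjusted p up to 0.113). In KO it was 0.37 (SE 0.12) and did not pass (limma, adjusted p = 0.0854), and without male KO replicate 4 it passed at 0.49 (limma, adjusted p = 0.00363). For scale, the Xist probe set, another sequence, read 4.14 to 5.22 in males, where it marks the level without that transcript.

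Abcc3, which returns glucuronides and bile acids to blood, averaged 10.13 ± 0.16 in female WT, 10.16 ± 0.24 in female KO, 9.97 ± 0.13 in male WT and 9.93 ± 0.30 in male KO (log2, SD, n = 6, 6, 5 and 6). The groups overlapped, with a lowest male KO value of 9.43 and a highest female KO value of 10.53. The average sex difference was 0.19 (SE 0.08) and did not pass (limma, adjusted p = 0.162).

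At the canalicular membrane, Abcb11, the bile salt export pump, ran from 12.15 to 12.57 in the 12 female livers and from 12.10 to 12.30 in the 11 male livers. Of the females, 9 lay above every male. The average difference was 0.15 (SE 0.05, 1.11-fold; limma, adjusted p = 0.0461). This call held on leaving out replicate 2 or 4 of female KO, 2 or 6 of female WT, 3 or 6 of male KO, or 3 of male WT, and ended on leaving out any other array (limma, adjusted p up to 0.0895). Quantile normalization ended it too, at 0.11 (limma, adjusted p = 0.157). Neither genotype passed alone (limma, adjusted p = 0.318 in WT and 0.215 in KO).

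Abcb4, the pump that moves phosphatidylcholine into bile, and Abcc2, the export pump of bilirubin conjugates, did not pass. Abcb4 was 0.14 higher in females (SE 0.06, 95% interval 0.02 to 0.25; limma, adjusted p = 0.131). Abcc2 gave -0.04 (SE 0.08, 95% interval -0.22 to 0.13; limma, adjusted p = 0.825). The difference measured for Slc10a1, 0.38 (95% interval 0.29 to 0.47), lies outside both intervals, but the genes were not tested against each other. For Abcc2 the 12 females ran from 9.92 to 10.67 and the 11 males from 9.83 to 10.54.

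Atp8b1, the flippase that keeps aminophospholipids on the inner leaflet of the canalicular membrane, was higher in males. Female WT livers ran from 7.71 to 8.09 and female KO livers from 7.64 to 8.04, with medians of 7.90 and 7.95. Male WT livers read 7.84, 8.07, 8.19, 7.96 and 8.13, and male KO livers ran from 8.03 to 8.58 with a median of 8.24. The KO females, bar 2, lay below every KO male, and the WT sexes overlapped more. The average difference was -0.24 (SE 0.07, 1.18-fold lower in females; limma, adjusted p = 0.0138); it was -0.13 in WT (SE 0.09; limma, adjusted p = 0.528) and -0.35 in KO (SE 0.09; limma, adjusted p = 0.0166). The KO call ended without female KO replicate 4 or male KO replicate 6 (limma, adjusted p up to 0.0581). The difference between the genotypes in this sex effect was itself not past the threshold (limma, adjusted p = 0.975).

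Within WT, 4 of the 10 passed, Slc10a1, Slco1a4 and Abcc4 higher in females and Slco1a1 lower, where 4.25% of all probe sets passed, 2.54% higher and 1.71% lower. These 4 were also the genes whose WT livers did not overlap by sex, which 3.86% of all probe sets showed. Within KO, 4 passed, Slc10a1 and Slco1a4 higher and Slco1a1 and Atp8b1 lower, where 4.85% of all did, 3.21% higher and 1.64% lower. For 3 of these 4, all but Atp8b1, the KO livers did not overlap by sex, which 3.38% of all probe sets showed. Of the 19192 probe sets above the median level, where all 10 transporters lie, 9.4% passed in WT and 10.4% in KO when these alone were tested. The WT and KO livers are separate animals. For 3 of 10 transporters the 12 female and 11 male livers did not overlap, where 1.22% of all probe sets showed this. The median size of the average sex difference, without its sign, was 0.22 over the 10 and 0.07 over all probe sets, dim ones included. The signed median was 0.14 over the 10 and -0.01 over all.

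Loss of P2ry13 was tested next. None of the 10 transporters passed in females, where 0.0547% of all probe sets did, in males, where 0.0313% did, or averaged, where 0.0808% did (limma). At an unadjusted p under 0.05, 3 of 10 lay past it in females, 1 in males and 1 averaged, against 5.87%, 6.14% and 6.91% of all probe sets. With each gene's own spread in place of the one limma shares across genes, 0 of 10 passed in each of the 3 comparisons too. Of all 38385 probe sets, 15, 6 and 24 passed in that form, in females, in males and averaged. With so few calls, 0 of 10 does not set the transporters apart from other genes. The medians of the differences were 0.05 in females, -0.02 in males and 0.05 averaged, against -0.01, -0.00 and -0.01 over all probe sets.

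The 3 transporters with the smallest unadjusted p in females were Slco1a1, Slco1b2 and Abcc2. Slco1a1 was 9.68 ± 0.42 in WT and 8.88 ± 0.60 in KO (log2, SD, n = 6 each). The difference was -0.80 (SE 0.19, 95% interval -1.19 to -0.40; limma, adjusted p = 0.285). Of the 6 KO females 4 lay below every WT female, and KO replicates 4 and 5 were lowest, at 7.93 and 8.34. Left out in turn, single arrays moved the difference between -0.89 and -0.60, and the adjusted p between 0.112 and 0.673, so it passed under none of them (limma). Slco1b2 was 0.29 higher in female KO (SE 0.11, 95% interval 0.07 to 0.51; limma, adjusted p = 0.804), and Abcc2 0.24 higher (SE 0.12, 95% interval 0.00 to 0.48; limma, adjusted p = 0.848).

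In males the smallest p belonged to Atp8b1, which read 8.04 ± 0.14 in WT (n = 5) and 8.27 ± 0.18 in KO (n = 6), with 5 of 6 KO livers above every WT liver (0.23, SE 0.09; limma, adjusted p = 0.739). Male Slco1a1 differed by -0.17 (SE 0.20; limma, adjusted p = 0.942). For the bile acid pump and carrier the intervals were narrow: Abcb11 differed by 0.06 in females (95% interval -0.08 to 0.19) and 0.04 in males (-0.10 to 0.18), and Slc10a1 by 0.01 (-0.11 to 0.13) and -0.04 (-0.17 to 0.09). The difference of the KO effects between the sexes passed for none of the 10, where 0.0104% of all probe sets passed; 2 of 10 lay past an unadjusted p of 0.05, against 5.14% of all, with -0.63 for Slco1a1 (SE 0.28; limma, adjusted p = 0.962) and 0.38 for Slco1b2 (SE 0.15; limma, adjusted p = 0.962).

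**Figure D3:**
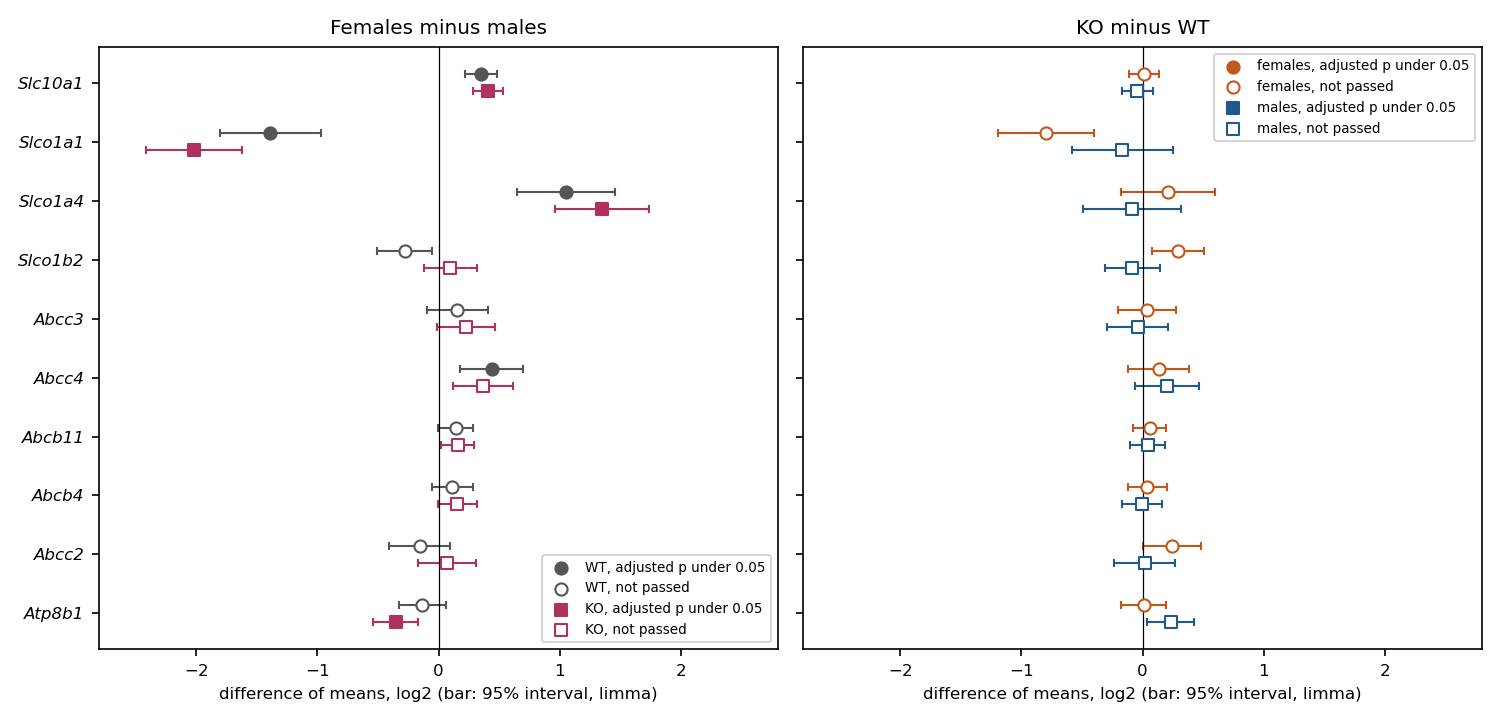
Differences of group means (x axis, log2, bars 95% intervals from limma) for the 10 transporters (y axis): on the left females minus males in WT and in KO, on the right KO minus WT in females and in males, with filled symbols at an adjusted p under 0.05. Filled symbols stand only on the left, with Slco1a1 at -1.39 and -2.02 and Slco1a4 at 1.05 and 1.35; on the right Slco1a1 in females, at -0.80, lies farthest from 0.

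Apart from sex and genotype, some transporters varied together from animal to animal. The log2 values were set against each group's mean and correlated over the 23 arrays, for all 45 pairs. Of these, 3 passed a permutation test within groups after adjustment over the 45 by Benjamini-Hochberg. Abcc3 and Slco1a1 gave Pearson r = -0.60 (permutation p = 0.00052, adjusted 0.0126) and Spearman rho = -0.65 (permutation p = 0.00065, adjusted 0.0293), and r = -0.57 without the 2 arrays farthest from the median of Abcc3. Abcc3 and Slco1a4 gave r = 0.69 (permutation p = 0.00056, adjusted 0.0126) and rho = 0.57 (permutation p = 0.0116, adjusted 0.155), and r = 0.63 without those arrays. Atp8b1 and Slco1a1 gave r = 0.61 (permutation p = 0.00138, adjusted 0.0207) and rho = 0.67 (permutation p = 0.0013, adjusted 0.0293), and r = 0.58 without the 2 arrays farthest for Atp8b1.

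These pairs share the RNA and the array of each animal. The Slco1a1 pairs differ in how the groups show them. With Abcc3, r was -0.92 in female KO, -0.59 in female WT, -0.47 in male KO and -0.50 in male WT (n = 6, 6, 6 and 5). With Atp8b1, r was 0.85 in female KO and 0.89 in female WT but -0.05 in male KO and 0.45 in male WT. The 2 female KO livers with the lowest Slco1a1 were replicates 4 and 5, and these had the highest Abcc3 of their group, 10.53 and 10.31. Male KO replicate 5, singled out after its values were seen, had the lowest Abcc3 (9.43), Slco1a4 (8.16) and Abcc4 (4.98) of the male KO livers.

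**Figure D4:**
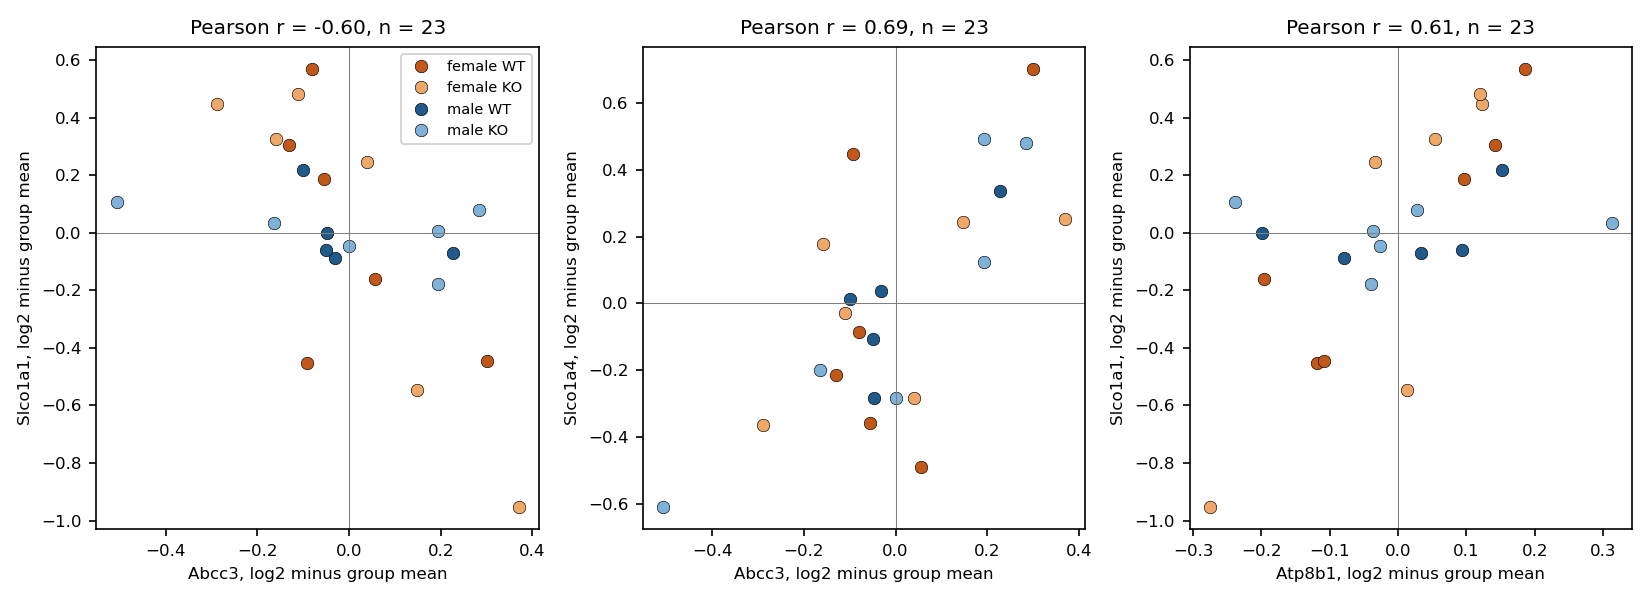
Log2 intensity minus the mean of the animal's group for 3 pairs of transporters (x and y axes), with 1 point per liver and 23 in each panel, coloured by group. Abcc3 falls as Slco1a1 rises (r = -0.60), rises with Slco1a4 (r = 0.69), and Atp8b1 rises with Slco1a1 (r = 0.61).

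Over all 23 arrays, sex included, the genes whose level followed Slco1a1 most closely among 10839 were Hsd3b5, a male-biased hydroxysteroid dehydrogenase (r = 0.95), C8b, a chain of complement (r = 0.95), and Egfr, the receptor of epidermal growth factor (r = 0.94). For Slco1a4 they were Rdh16, a retinol dehydrogenase (r = 0.96), Mgst3, a microsomal glutathione transferase (r = 0.94), and Slc4a4, a bicarbonate carrier (r = 0.94). Each of these 6 differed between the sexes in the direction of its transporter. The 3 genes closest to Abcc3 were Dmac2, Olfm1 and S100a13 (r = 0.84, 0.82 and 0.80), and the 3 closest to Abcb11 were F9, Ubl3 and Hnrnpu (r = 0.83, 0.83 and 0.82). These correlations describe arrays that fall into sexes and groups, and no test goes with them.

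Other transporters of the hepatocyte membranes showed differences in both directions. Of 24 listed, 21 were measured; 6 were higher in females and 2 lower, and 13 did not pass (limma, averaged over genotypes; median 0.06 against -0.01 over all probe sets). In this comparison 10.5% of all probe sets passed, 5.96% higher and 4.55% lower. Of the 19192 probe sets above the median level, where many of the listed genes lie, 20.1% passed when these alone were tested. Both shares are the background of this count and of those for the lists and markers that follow. Abcg2, the breast cancer resistance protein, a canalicular pump of sulfates and drugs, differed by -1.37, lower in females (SE 0.07; limma, adjusted p = 6.45e-15), with 10.39 ± 0.16 in male WT (n = 5) and 8.97 ± 0.19 in female WT (n = 6). Abcg5, a partner of the sterol export pump, was 0.66 higher (SE 0.06) and its partner Abcg8 0.36 higher (SE 0.07; limma, adjusted p = 2.30e-08 and 0.00157). Slc47a1, an exporter of organic cations, was 0.34 higher (SE 0.05; limma, adjusted p = 6.20e-06). Abcb1a was 0.53 higher, with every female above every male, at group means of 3.15 to 3.77, where probe sets for Y-linked genes read up to 3.69 in females. Slc51a and Slc51b, the subunits of the bile acid exporter of the blood side, gave -0.05 and 0.10 (limma, adjusted p = 0.806 and 0.561).

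Of the partners and delivery factors of the canalicular pumps, 10 of 12 were measured, 3 were higher in females and 1 lower (median 0.06, limma). Ezr, the linker of membrane and actin that cholangiocytes use, was 0.49 higher in females (SE 0.09; limma, adjusted p = 0.000531), Msn, the moesin of blood-derived and endothelial cells, was 0.26 higher (SE 0.05; limma, adjusted p = 0.00132), and Slc9a3r1, a scaffold that holds transporters, gave -0.30 (SE 0.04; limma, adjusted p = 1.21e-05). Vipas39, a factor of vesicle delivery to the canalicular membrane, was 0.14 higher (SE 0.04; limma, adjusted p = 0.0417). Tmem30a, the subunit that Atp8b1 needs, gave 0.06 (SE 0.06; limma, adjusted p = 0.578).

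Among bile acid sensors, regulators and enzymes, 24 of 27 were measured, 9 were higher in females and 7 lower (median 0.02, limma). The oestrogen receptor Esr1 was 1.68 higher (SE 0.13), the female-biased repressor Cux2 0.83 higher (SE 0.09) and the drug sensor Nr1i3 0.57 higher (SE 0.07; limma, adjusted p = 4.28e-10, 1.20e-07 and 3.21e-07). Cyp7b1, an oxysterol hydroxylase of bile acid synthesis, gave -2.78 (SE 0.15; limma, adjusted p = 7.17e-14). The bile acid receptor Nr1h4 did not pass (-0.10, SE 0.06; limma, adjusted p = 0.306), while its target Nr0b2 was lower in females (-0.53, SE 0.10; limma, adjusted p = 0.000714). Cyp7a1, the rate-limiting enzyme of bile acid synthesis, was 1.01 higher in females (SE 0.24; limma, adjusted p = 0.00481). The difference was 1.65 in KO (SE 0.33; limma, adjusted p = 0.00171) and 0.37 in WT (SE 0.34; limma, adjusted p = 0.66), and the difference between these did not pass (limma, adjusted p = 0.962).

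No gene measured in the 3 lists passed between KO and WT in either sex or averaged (limma). In females, the leading pair by p in each list was Slco1a5 (-0.38) and Slc22a5 (0.19), Slc9a3r1 (0.14) and Msn (0.12), and Nr5a2 (0.24) and Baat (0.13), with limma adjusted p from 0.836 to 0.883. In males it was Slc10a2, the bile acid carrier of bile duct cells and ileum (0.58, SE 0.17; limma, adjusted p = 0.493), and Slc47a1 (-0.16), Ezr (0.43, SE 0.13; limma, adjusted p = 0.597) and Slc9a3r1 (0.05), and Hnf4a, a hepatocyte transcription factor (0.21, SE 0.08; limma, adjusted p = 0.719), and Fgfr4 (0.26). Averaged, it was Slc10a2 (0.37) and Atp8b2 (-0.20), Ezr (0.23) and Slc9a3r1 (0.10), and Hnf4a (0.14) and Fgfr4 (0.16), with limma adjusted p from 0.518 to 0.710.

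**Figure D5:**
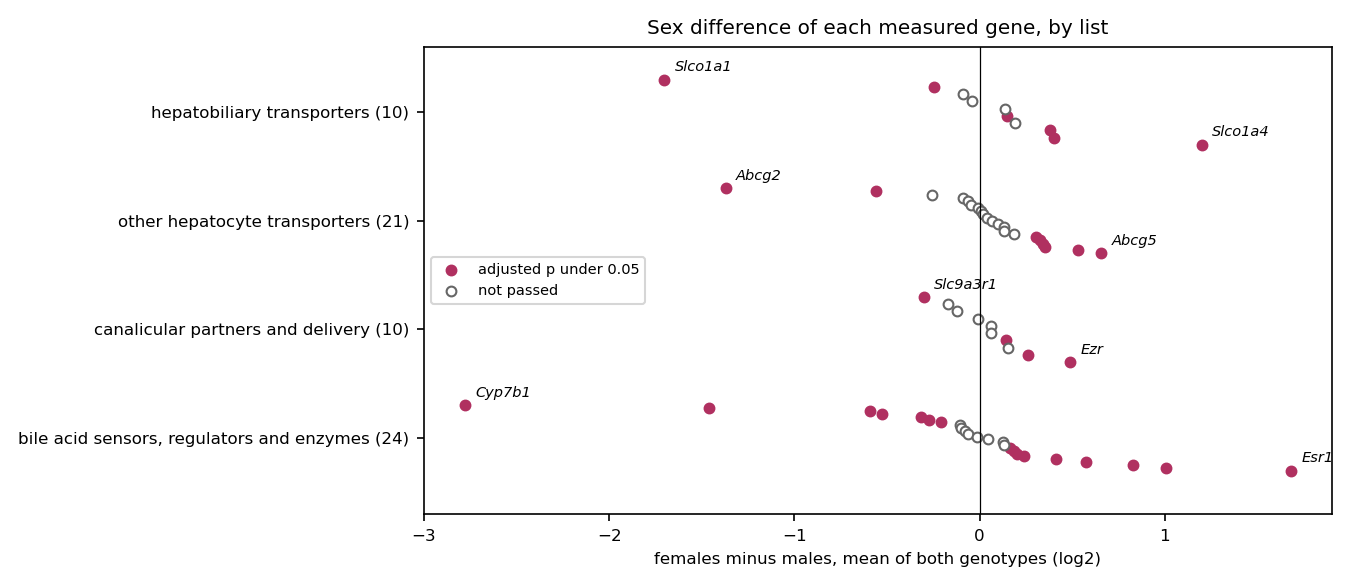
Female minus male difference of each measured gene (x axis, log2, mean of both genotypes), 1 point per gene, in rows for the 10 transporters and the 3 further lists, with filled points at an adjusted p under 0.05; the gene at each end of a row is named. Each row has points on both sides of 0, from Slco1a1 at -1.70 to Slco1a4 at 1.20 among the 10 transporters.

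Cell type markers moved with sex too. Of 6 measured Kupffer cell and macrophage markers, 5 were higher in females, with a median of 0.49, and the mean of the 6 lay between 8.61 and 9.03 in the 12 females and between 8.12 and 8.53 in the 11 males. Of 6 endothelial markers 3 were higher (median 0.20), of 6 stellate cell markers 2 (median 0.14) and of 6 leukocyte markers 3 (median 0.26). None of the 5 hepatocyte markers passed, with a median of 0.07. Of 6 bile duct markers only Sox9 passed, at -0.34 (SE 0.07), of 4 genes listed for adipocytes only Car3, at -0.14 (SE 0.04), and of 4 pancreas markers none. Car3, which hepatocytes are also known to express, averaged 14.1 in the 12 females and 14.2 in the 11 males and cannot be read as an adipocyte marker in liver. The mean of the 4 pancreas markers was 7.35 in female KO replicate 3 and between 5.55 and 6.01 in every other liver. Without that liver the KO difference of Slco1a1 in females was -0.89 (limma, adjusted p = 0.167), and 3 transporters passed between the sexes in WT, 4 in KO and 5 averaged, Abcc4 in WT and Abcb11 averaged being lost. Of all 38385 probe sets, 1584, 1733 and 3994 passed in these comparisons. The 2 losses are not particular to that liver. Of the 23 arrays left out in turn, 18 ended the Abcc4 call in WT and 16 the Abcb11 call averaged. The 1 measured erythroid marker, Alas2, a haem synthesis gene of red cell precursors, gave -2.74 (SE 0.07). Only 1 of 3 listed erythroid genes was measured, so more red cell precursors in males cannot be told apart from more Alas2 RNA in other cells. The part of these markers in the sex differences of the transporters was not tested. Between KO and WT no marker of any of these types passed.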

How the data were processed

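Per the submitters' processing notes, the array values were made with RMA, with no version stated; the intensities deposited by the authors are positive and on a linear scale, and were converted to log2. Samples were grouped by their titles, which name genotype, sex and a replicate number. One mean per group was fitted to all 38385 probe sets and 23 arrays with limma 3.58.1 in R 4.3.3 (lmFit, eBayes, 19 residual degrees of freedom), with Benjamini-Hochberg adjustment over all probe sets and a threshold of 0.05. RMA compresses dim signals, so folds of dim genes can be too small, and the number of arrays limits the precision.

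The platform annotation gave 1 symbol to 24478 probe sets, several to 65 and none to 13842. Named list genes were the 4 with the smallest p between the sexes among those that passed and the 2 with the smallest p in each KO comparison; further ones were named after their values were seen. Likeness was Pearson r over 23 arrays. The members and lists were chosen with earlier results of these data known. Nothing states that replicates are separate litters or batches, and p-values measure the spread between these animals. Same-numbered arrays of different groups correlated between -0.17 and 0.21 (median -0.02, over 0.1 in 3 of 33 pairs). The numbers were treated as names. Pairs with different numbers were not compared, so whether the numbers mark litters or batches cannot be told. The fit was also run on simulated data with independent noise for each probe set and no shared array effects. Its outcome is not given here. Alternatives were another scaling, filter, variance model, weighting, probe set rule, sample set, minimum change and leaving out each array.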

Additional observations from a re-analysis of the deposited data

Results flagged for a closer look

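In 3 cases a single array stood apart from the rest of its group, by the gap to the nearest array over the group's whole range (Dixon's test). The 40 cases tested were the 4 groups of each of the 10 transporters, with 5 or 6 arrays per group. Chance flags about 1 in 20 of such cases. Abcc4 read 6.02 in female WT replicate 2, against 5.63 in the nearest liver of that group (gap over range 0.808). Without that array the Abcc4 sex difference in WT was 0.37 (limma, adjusted p = 0.113). Abcc3 read 10.20 in male WT replicate 3, against 9.94 in the nearest (0.787). Slco1a1 read 11.28 in male WT replicate 4, against 11.07 in the nearest (0.714). All 3 livers are WT.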

How the results depend on the processing

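A minimum change of 20% left 2 transporters called between the sexes in WT, 2 in KO and 2 averaged (Slco1a1 and Slco1a4), where 0.766%, 0.956% and 1.34% of all probe sets passed. Leaving out each array in turn gave 3 to 4 in WT, 3 to 5 in KO, 5 to 6 averaged and 4 to 6 in the F test (limma), and 0 in every KO comparison. Of all 38385 probe sets, 1257 to 1678 then passed between the sexes in WT, 1447 to 1927 in KO and 3491 to 4092 averaged. Between KO and WT, 16 to 29 passed in females, 9 to 21 in males and 23 to 39 averaged. The total for the F test was not counted with arrays left out. The 4 calls that hang on single arrays are Abcc4 in WT, Abcb11 averaged, and Atp8b1 in KO and in the F test; the last ended without male KO replicate 4 or 6 (adjusted p up to 0.0855), and Slco1b2 entered the F test without female WT replicate 5 (0.0489). The Abcc4 call in WT also ended under quantile normalization (0.42, adjusted p = 0.0544) and without limma's shared spread (0.0931), as did its F test (0.0519); with array weights Abcc4 passed in KO (0.40, adjusted p = 0.031). With a replicate block 5 passed averaged, Abcb11 being lost (adjusted p = 0.0789), and no other call changed. In that fit 3815 of all 38385 probe sets passed averaged. The cause of these changes was not tested. Slco1a1 in female KO had adjusted p between 0.232 and 1 over the other settings and between 0.112 and 0.673 on leaving out each array.

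Signs turned only for differences that were not called. Quantile normalization gave -0.0051 for Slc10a1 and -0.029 for Atp8b1 between KO and WT in females, 0.0068 for Abcb4 in males, and -0.020 for Abcb11 and -0.0039 for Abcb4 in the difference of KO effects. Equal array medians gave 0.0067 for Abcb4 in males and 0.011 for Abcc3 averaged. Array weights gave -0.022 for Abcc3 and -0.0098 for Slc10a1 in females, -0.0077 for Abcc2 in males, -0.0056 for Abcb4 and -0.016 for Slco1a4 averaged, and -0.012 for Abcb11 in the difference. The replicate block gave 0.0044 for Abcc3 averaged. Leaving out single arrays, KO minus WT in females ran from -0.011 to 0.082 for Abcb4, -0.039 to 0.095 for Abcc3, -0.021 to 0.032 for Slc10a1 and -0.030 to 0.064 for Atp8b1. In males it ran from -0.028 to 0.036 for Abcb4, -0.097 to 0.079 for Abcc2, -0.096 to 0.062 for Abcc3 and -0.18 to 0.036 for Slco1a4, and averaged from -0.0063 to 0.040 for Abcb4 and -0.039 to 0.049 for Abcc3. The difference of KO effects ran from -0.018 to 0.067 for Abcb11, -0.0086 to 0.084 for Abcb4, -0.027 to 0.13 for Abcc3 and -0.16 to 0.050 for Abcc4. A fit of only the compared groups was not run for averaged comparisons, which need all groups. Signal over background is not given per probe set, so its limit on each gene is unknown.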
